A study of Mus musculus with 4 samples.

Results

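The Iroquois genes Irx1 to Irx6 were followed in embryonic mouse kidneys after loss of Sall1, a zinc finger transcription factor of the nephron progenitors. Members were all probes whose RefSeq accession is a transcript of an Irx gene: 7 probes for 6 genes, of 55681 probes on the array. Each gene had 1 probe that could be tested, and the other probe of Irx2 did not rise clearly above background on any of the arrays. Of the 4 arrays, 2 carried RNA of kidneys labelled Sall1 knockout and 2 carried RNA of control kidneys, all from 129 and C57BL/6 hybrids at E13.5, after tamoxifen at E12.5. The labels name Sall1CreER for the dissected kidneys of both groups, whereas the titles name CreER for the knockout samples and flox for the controls, so whether the controls carried CreER is not settled and an effect of CreER cannot be told apart from that of Sall1. CreER is a Cre recombinase that acts once tamoxifen is given; the promoter that drives it here is named in the labels only by the word Sall1CreER. Whether a sample was 1 embryo or a pool is not given, so p-values measure only the spread between these samples.

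Iroquois proteins are homeodomain transcription factors of the TALE class, and their genes lie in a pair of clusters in the mouse. In the nephron, Irx1, Irx2 and Irx3 are known as marks of the intermediate part of the S-shaped body, the forerunner of the loop of Henle, and in Xenopus irx1 and irx3 are needed for the intermediate tubule of the pronephros. The other members are better known elsewhere: Irx4 from the ventricles of the heart, Irx5 from cardiac repolarisation and the retina, and Irx6 from retinal bipolar cells.

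Irx3, Irx5 and Irx6 lie on chromosome 8 and Irx1, Irx2 and Irx4 on chromosome 13. Promoter windows of 3 of the 6 genes were at hand, each running from 250 bases before to 50 bases after the start of the gene, and they are shown to set start regions of both clusters side by side (RefSeq, build GRCm38.p6). They are Irx2 at chr13:72628570-72628869 on the plus strand, Irx3 at chr8:91801605-91801904 on the minus strand and Irx4 at chr13:73260247-73260546 on the plus strand, each written 5′ to 3′ along its gene.
Irx2: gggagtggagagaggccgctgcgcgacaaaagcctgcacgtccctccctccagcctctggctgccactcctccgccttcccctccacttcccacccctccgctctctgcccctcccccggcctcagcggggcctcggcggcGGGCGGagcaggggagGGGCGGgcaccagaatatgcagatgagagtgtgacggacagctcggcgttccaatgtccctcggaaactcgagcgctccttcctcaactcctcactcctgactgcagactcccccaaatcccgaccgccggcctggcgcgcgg
Irx3: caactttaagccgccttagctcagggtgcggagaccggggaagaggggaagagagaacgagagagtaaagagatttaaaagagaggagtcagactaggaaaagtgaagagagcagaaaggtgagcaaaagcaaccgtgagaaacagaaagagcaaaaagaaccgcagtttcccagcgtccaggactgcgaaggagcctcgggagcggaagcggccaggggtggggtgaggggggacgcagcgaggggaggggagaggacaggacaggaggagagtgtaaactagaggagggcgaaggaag
Irx4: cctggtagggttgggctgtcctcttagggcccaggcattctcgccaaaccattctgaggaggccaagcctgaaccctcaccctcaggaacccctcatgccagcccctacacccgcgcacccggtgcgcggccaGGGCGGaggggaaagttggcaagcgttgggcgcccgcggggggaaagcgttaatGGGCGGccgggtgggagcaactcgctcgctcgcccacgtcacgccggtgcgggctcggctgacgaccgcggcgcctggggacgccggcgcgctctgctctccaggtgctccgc
Capitals mark matches, on both strands, to a GC box (GGGCGG). Irx2 and Irx4 each hold 2 GC boxes and Irx3 holds 0, where 35.7% of 32851 promoter windows of this length hold at least 1. The Iroquois site ACANNTGT and the TATA box TATAAA, in 7.38% and 13.6% of windows, match none of the 3. Irx4, Irx2 and Irx3 hold 31, 25 and 14 CpG pairs, against a median of 7 over all windows. These matches describe letters, not bound sites.

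Signals are the scanner software's processed intensities, in arbitrary units, and log2 signals were scaled by each array's 75th percentile, which was 534 and 521 in the knockout and 597 and 548 in the control arrays. Between 60.6% and 64.2% of spots were well above background on each array. The targeted gene, Sall1, had log2 signals of 1.03 and 1.07 in the knockout and 1.79 and 1.81 in the control arrays, a log2 difference of -0.75 ± 0.056 (SE, n = 2 per group) with adjusted p = 0.126 in limma. Its signal was 1.68-fold lower in the knockout kidneys and remained above background. Sall1 had 1 probe, and whether it lies in the deleted part is not given. Tested features numbered 25075, of which 0 passed an adjusted p under 0.05 in limma (0% in either direction) and 3189 had an unadjusted p under 0.05. At an adjusted p under 0.1, 11 were higher (0.0439%) and 10 lower (0.0399%). With limma's trended robust prior 136 were higher (0.542%) and 164 lower (0.654%) at 0.05. None of these calls was an Irx gene. Correction by normexp gave 19 higher and 22 lower.

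The question for the family was which members differed between the groups. All 6 point estimates lay above 0, as did 11625 of the 25075 tested features. Without control replicate 1, the estimates of Irx2, Irx3 and Irx5 fell below 0. Only Irx1 and Irx6 had values in both knockout arrays above both control arrays, and no member passed over all genes tested. These 2 of 6 also had an unadjusted p under 0.05, beside 6.77% of all genes with such a p and a higher level and 5.95% with a lower level. The share of all genes without overlap was 21.5% higher and 27.7% lower, so a lack of overlap alone was common. Separation with a difference of at least 1.5-fold, which Irx1 and Irx6 both showed, was met by 2.48% of genes in the higher and 1.05% in the lower direction. The median log2 difference of the 6 genes was 0.38, beside -0.013 for all genes tested. It was 0.025 without control replicate 1, 0.17 with normexp correction and 0.13 over the 5 genes above background on all 4 arrays, a set without Irx2.

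**Figure D1:**
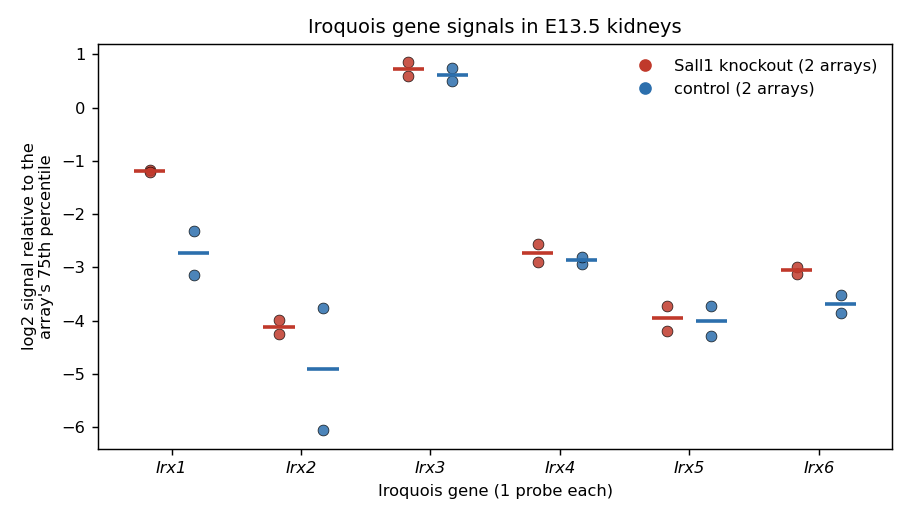
Log2 signal of each Iroquois gene (1 tested probe per gene) relative to the 75th percentile of the array, for 2 Sall1 knockout arrays (red, left of each pair) and 2 control arrays (blue); points are arrays and bars are group means. Irx1 and Irx6 separate by group, Irx2 is spread widely in the controls, and Irx3, Irx4 and Irx5 overlap; heights of different genes are read by different probes and are not comparable.

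Irx1, a mark of the intermediate nephron segment, had signals of 235 and 225 in the knockout arrays, against 67.2 and 111 in the control arrays. The knockout arrays lay close together, the control arrays did not, and the groups did not overlap. On the log2 scale Irx1 averaged -1.20 ± 0.022 in knockout and -2.73 ± 0.60 in control kidneys (SD, n = 2 each). Irx1 was thus 2.89-fold higher in the knockout kidneys, with a 95% interval of 1.57 to 5.34-fold, a log2 difference of 1.53 ± 0.31 (SE) and an adjusted p of 0.279 in limma. In size this difference stood above 99.7% of all signed differences. With normexp background correction the difference of Irx1 shrank to 1.06. The software's error estimate, which covers the spot and not the spread between samples, was 10.1% to 11.2% of its signal. In whole kidneys, a change in the number of cells that express a gene and a change in RNA per cell cannot be told apart.

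The gap between the control arrays bears on Irx1: control replicate 2 lay 0.84 above control replicate 1 on the log2 scale. Without control replicate 1 the difference was 1.11, and without control replicate 2 it was 1.95, with neither passing. Markers of liver and gut, tissues that lie near the kidney in the embryo, moved with the groups as well. Of 12 such genes 11 were tested, and all 11 were higher in both knockout arrays than in both controls, 8 of them with an unadjusted p under 0.05, with a median difference of 1.80. Over all genes tested, 21.5% were separated in this direction and 6.77% were higher at that p. None of the 11 liver and gut genes passed over all genes tested. Their summed signal ranged over 21232 to 23553 in the knockout and 8319 to 11263 in the control arrays, while Cdx2, a defining gene of the gut, was not clearly above background on the 4 arrays. The liver and gut genes were also higher in control replicate 2 than in control replicate 1, by a median of 0.63. Proximal tubule genes, of the kidney itself, were higher as well, with a median difference of 0.52 over 11 tested. Between the controls they differed by a median of 0.020. The part of either list in the difference of Irx1 was not tested.

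Irx6 had signals of 67.5 and 60.0 in the knockout arrays, against 41.2 and 47.9 in the control arrays. The groups did not overlap, although the spot was dim and the controls lay 0.34 apart on the log2 scale, where the median gap over all genes was 0.094. Its log2 signal averaged -3.05 ± 0.094 in knockout and -3.69 ± 0.24 in control kidneys (SD, n = 2 each). This made Irx6 1.55-fold higher in the knockout kidneys, with a 95% interval of 1.17 to 2.06-fold, a log2 difference of 0.63 ± 0.14 (SE) and an adjusted p of 0.303 in limma. The difference shrank to 0.34 with normexp background correction, with an adjusted p of 0.252 in limma. The software's error for this spot was 11.7% to 14.4% of its signal. The same liver and gut markers and the proximal tubule genes moved with the groups beside Irx6, and their part was not tested.

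Irx2, which shares the intermediate segment with Irx1, had signals of 33.7 and 27.3 in the knockout arrays, against 8.95 and 40.1 in the control arrays. The control arrays fell on either side of the knockout arrays, and control replicate 1 was not well above background. Its log2 difference was 0.80 ± 0.84 (SE, adjusted p = 0.701 in limma), with a 95% interval of -1.58 to 3.18, so its direction was not resolved at this precision. The sign rested on control replicate 1, without which the difference was -0.35, and it was 1.94 without control replicate 2. The other Irx2 probe read 3.16 and 3.96 in the knockout and 3.32 and 3.24 in the control arrays, on none of which it was well above background.

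Irx3, a further mark of the intermediate segment, also shapes the conduction system of the mouse heart. Its signals were 804 and 937 in the knockout and 842 and 912 in the control arrays. After scaling, its log2 signals were 0.59 and 0.85 in the knockout and 0.50 and 0.74 in the control arrays, so the groups overlapped in part. The log2 difference was 0.10 ± 0.14 (SE, adjusted p = 0.767 in limma), and its 95% interval ran over 0.82 to 1.41-fold. The software's error for this spot was 10.01% of its signal on every array, the smallest among the members, and the interval leaves room for a modest change in either direction.

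Irx4, the ventricular gene of the family, had signals of 91.0 and 69.4 in the knockout and 78.2 and 78.7 in the control arrays. After scaling, its log2 signals were -2.55 and -2.91 in the knockout and -2.93 and -2.80 in the control arrays. Knockout replicate 1 lay above both controls and knockout replicate 2 between them. The log2 difference was 0.13 ± 0.15 (SE, adjusted p = 0.712 in limma), with an interval of 0.82 to 1.47-fold. Of 7 heart genes 5 were tested, with a median difference of 0.097. That median was -0.042 without control replicate 1, 0.45 without control replicate 2, and 0.044 and 0.038 without knockout replicates 1 and 2. The summed signal of the 5 genes was 1682 to 2369 in the knockout and 911 to 1536 in the control arrays. This sum rested largely on Myh7, which differed by 1.44 ± 0.64 (SE). Myl2, Tnni3, Nppa and Myh6 had differences between -0.20 and 0.24, all with overlapping groups. The cardiac regulator Nkx2-5 was not clearly above background on the 4 arrays, and the part of heart tissue in the values of Irx4 was not tested.

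Irx5 had signals of 29.3 and 39.4 in the knockout and 30.5 and 41.3 in the control arrays. Each group held 1 lower and 1 higher array, and the groups overlapped. The log2 difference was 0.053 ± 0.27 (SE, adjusted p = 0.941 in limma), with an interval of 0.61 to 1.77-fold, wider than that of Irx3. The second replicate exceeded the first by 0.46 in the knockout and 0.56 in the control arrays. Replicates are numbered within each group, and the numbers pair no arrays between the groups.

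**Figure D2:**
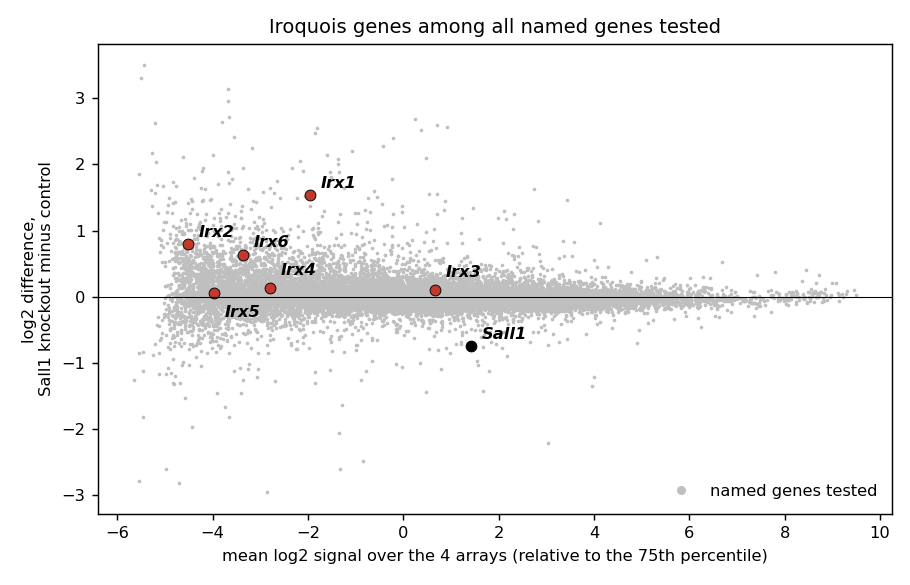
Log2 difference (Sall1 knockout minus control) against mean log2 signal over the 4 arrays for each named gene tested, with Iroquois genes in red and Sall1 in black. Irx1 lies at 1.53, above 99.7% of all differences, and Irx2 (0.80) and Irx6 (0.63) lie in the dim range where the scatter is wide.

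The profiles of the members over the 4 arrays were compared by the Euclidean distance between gene-centred log2 signals, a description with no test. Irx3 and Irx5 were the closest pair, at 0.28, followed by Irx3 and Irx4 at 0.44. Irx2 was farthest from the rest, with Irx1 nearest to it at 1.27, and Irx1 had Irx6 nearest at 0.97. Outside the family, the named genes most like Irx1 were Hsd3b4 (distance 0.134, log2 difference 1.63), F2, which encodes prothrombin (0.170 and 1.52), and Hdc, the enzyme that makes histamine (0.215 and 1.64). Most like Irx6 were Rnf186 (0.050 and 0.66), Adcy7 (0.065 and 0.60) and Fhad1 (0.075 and 0.67). For Irx2 the nearest were Nxpe2 (0.31), the globin Hbb-b2 (0.41) and the keratin Krt5 (0.45), all low in control replicate 1. Irx3 was nearest to Syt16, Shfl and Gpr84, Irx4 to Ifi27l2b, Sox10 and Septin4, and Irx5 to Dnmt3l, Gpx1 and Gclm, at distances between 0.030 and 0.073. With 4 arrays many genes share any such profile.

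The next question was how each cluster sits among its chromosomal neighbours, taken from the gene order of the reference table. On chromosome 8 the order was Sall1, Irx3, Irx5 and Irx6, with 6 protein-coding genes between Sall1 and Irx3. Of the 20 nearest protein-coding genes around Irx3, Irx5 and Irx6 (10 on each side), 12 were tested, and their median log2 difference was 0.079 (0.19 without control replicate 1 and 0.013 without control replicate 2). Besides Sall1, those with an unadjusted p under 0.05 were Nod2, a sensor of bacterial peptidoglycan, at 0.57 ± 0.16 (SE), and Rbl2, of the retinoblastoma family, at 0.21 ± 0.064. With Sall1 these were 2 higher and 1 lower of 12, beside 6.77% higher and 5.95% lower of all genes tested. Nod2 was well above background on 1 of 2 control arrays. Next to Irx3, Fto, an RNA demethylase whose introns hold enhancers of Irx3, differed by 0.0096 ± 0.060, and Rpgrip1l, a protein of the cilium, by -0.00055 ± 0.070. Irx3, Fto and Rpgrip1l all had overlapping groups.

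Around Sall1, 20 of 20 neighbours were tested, 10 of them shared with the set around the cluster and 3 of them the Irx genes. Of these 20, 5 had an unadjusted p under 0.05 and a higher level, namely Irx6, Nod2, Adcy7, Zfp423 and Rbl2, and 1 had a lower level, Cnep1r1. Over all genes tested, 6.77% were higher and 5.95% lower at that p. Adcy7, an adenylyl cyclase, was 1.52-fold higher and is also among the genes most like Irx6. Its log2 signals were -1.10 and -1.24 in the knockout and -1.98 and -1.56 in the control arrays. None passed over all genes tested (adjusted p = 0.348 in limma for Adcy7).

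On chromosome 13, the gene next to Irx1 was Adamts16, a secreted metalloprotease of the developing kidney. Adamts16 had log2 signals of 0.079 and 0.35 in the knockout and -0.81 and -0.60 in the control arrays, without overlap, and was 1.89-fold higher (log2 difference 0.92 ± 0.14, SE). Of the 20 neighbours 15 were tested, with a median of -0.059 (-0.026 without knockout replicate 1 and -0.032 without control replicate 2). Besides Adamts16, only Slc12a7, a potassium-chloride cotransporter, had an unadjusted p under 0.05, at -0.19 ± 0.054. These were 1 higher and 1 lower of 15, near the shares of 6.77% higher and 5.95% lower over all genes tested. No neighbour passed over all genes tested. Apart from Adamts16, the neighbours tested had differences between -0.19 and 0.12.

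**Figure D3:**
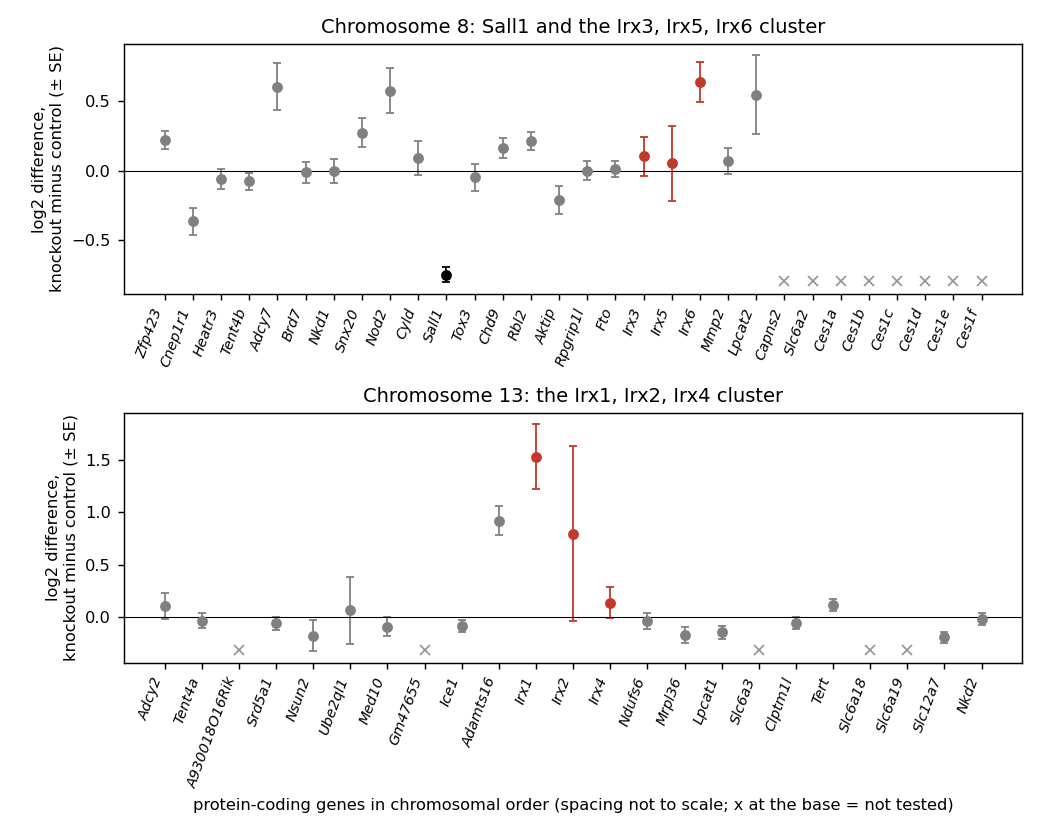
Log2 difference (Sall1 knockout minus control, ± SE) of protein-coding genes in chromosomal order around Sall1 and the Irx3, Irx5, Irx6 cluster (top) and the Irx1, Irx2, Irx4 cluster (bottom), Irx genes in red, Sall1 in black, crosses not tested. Irx1 at 1.53 and its neighbour Adamts16 at 0.92 are the 2 highest points of the lower panel; spacing is not to scale.

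Other genes of the segments in which Irx genes are known were then set beside them. All 24 genes of the intermediate segment and S-shaped body were tested, with a median difference of -0.039, which was 0.041 without knockout replicate 1, 0.051 without control replicate 2 and -0.066 without control replicate 1. An unadjusted p under 0.05 was met by 4 with a higher and 4 with a lower level, beside 6.77% and 5.95% of all genes tested. Among the higher were Pax8 at 0.37 ± 0.11 (SE), Npy at 0.30 ± 0.066 and Osr2 at 0.24 ± 0.070. Lower were Dkk1, a Wnt inhibitor, at -1.005 ± 0.16, Pou3f3, needed for the loop of Henle, at -0.37 ± 0.11, Fgf8 at -0.34 ± 0.067 and Lhx1 at -0.19 ± 0.054. None of the 24 passed over all genes tested.

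The loop of Henle and distal tubule, the later fate of the Irx1, Irx2 and Irx3 domain, was only partly measurable at this stage. Of 21 genes 15 were tested, and the transporter genes Slc12a1, Slc12a3 and Kcnj1 were not clearly above background on the 4 arrays. At an unadjusted p under 0.05, 3 were higher, among them Sostdc1 at 0.94 ± 0.093 (SE) and Esrrg at 0.71 ± 0.098, and 1 was lower, the tight junction gene Cldn10, at -0.51 ± 0.081. Cldn10 was well above background on 1 of 2 knockout arrays. The median was 0.13, but -0.006 without control replicate 1 and 0.29 without control replicate 2. At the same p, proximal tubule genes had 7 higher and 0 lower of 11 tested, with a median of 0.52. Nephron progenitor genes had 0 higher and 8 lower of 12, with a median of -0.54. Of all genes tested 6.77% were higher and 5.95% lower at this p, and no gene of either list passed over all genes tested.

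**Figure D4:**
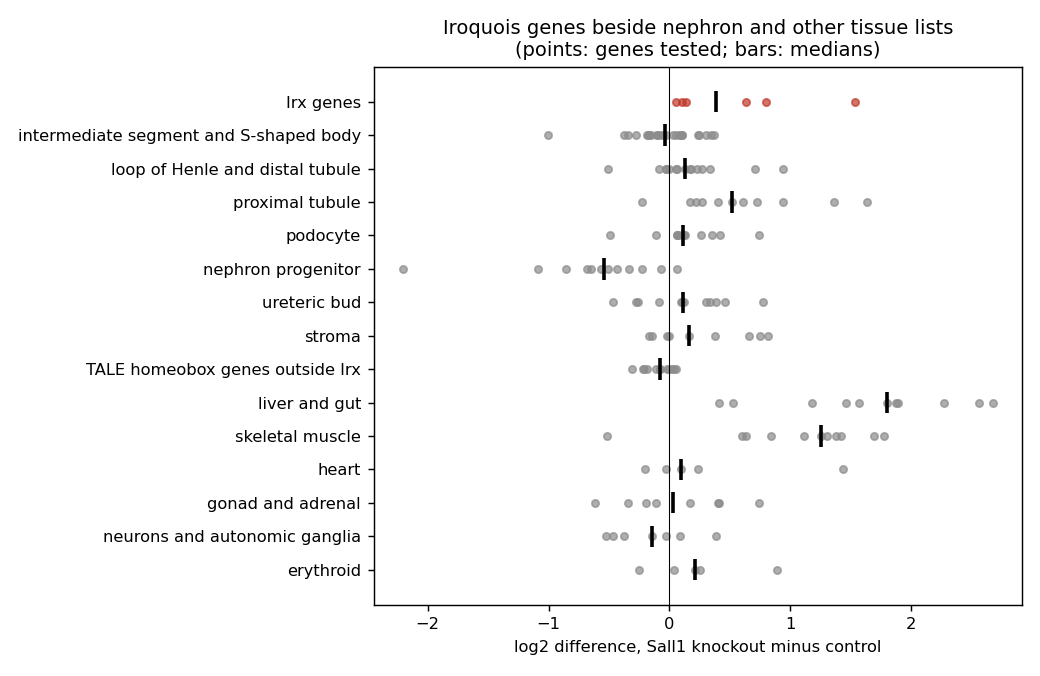
Log2 differences (Sall1 knockout minus control) of the genes tested in each list, with Irx genes in red at the top and list medians as black bars. The Irx genes run over 0.053 to 1.53 with a median of 0.38, which was 0.025 without control replicate 1. The intermediate segment list has a median of -0.039 and the proximal tubule list 0.52, and liver and gut genes have the highest median (1.80).

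Other TALE homeobox genes include the Meis and Pbx partners of Hox proteins. All 12 were tested, 2 of them lower at an unadjusted p under 0.05 and 0 higher, with a median of -0.080 (-0.039 with normexp correction) and a range of -0.31 to 0.056. The 2 lower genes were Meis2 at -0.18 ± 0.057 (SE) and Meis3 at -0.21 ± 0.067. Mkx, which encodes Mohawk, the relative closest to the Iroquois proteins, differed by -0.31 ± 0.17. Of 7 genes that Iroquois proteins bind or act on in other tissues 6 were tested, and 1 was higher and 1 lower at the same p. Over all genes tested the shares at this p were 6.77% higher and 5.95% lower. Gja1, a gap junction gene lowered by Irx3 in the mouse conduction system, differed by -0.36 ± 0.070, and Trps1, whose protein binds IRX5, by 0.27 ± 0.055. Gja5, the gap junction gene raised by Irx3 there, differed by -0.072 ± 0.060, and Kcnd2, a potassium channel gene repressed by Irx5 in the ventricle, by 0.081 ± 0.065.

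Markers of further tissues were read to see what else the kidneys held. Skeletal muscle genes had a median difference of 1.25 over 11 genes (0.45 without control replicate 2), with a summed signal of 24393 to 35101 in the knockout and 10416 to 23218 in the control arrays. At an unadjusted p under 0.05, 3 were higher and 1 lower, beside 6.77% and 5.95% of all genes tested. The lower gene was Des, at -0.52 ± 0.099 (SE). The muscle genes ran against Irx1 between the controls, being lower in control replicate 2 by a median of 1.06 (a difference of -1.06). Gonad and adrenal genes had a median of 0.033 over 8 tested, which lay between -0.16 and -0.002 with any 1 array left out. Neuronal genes had one of -0.14 over 7, which was -0.45 without control replicate 1 and 0.033 without control replicate 2. Erythroid genes had a median of 0.21 over 5, which was -0.43 without control replicate 1, 0.73 without control replicate 2, 0.66 without knockout replicate 1 and -0.32 without knockout replicate 2. From the first to the second replicate within a group, erythroid genes differed by a median of 0.90 in the knockout and 1.60 in the control arrays. Irx2 differed by -0.27 in the knockout and 2.29 in the control arrays. The part of these tissues in the Irx values was not tested.

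Under 14 alternatives of processing, Irx1 ranged over 1.06 to 1.95 and Irx6 over 0.34 to 0.81. Their groups did not overlap in any, but this could have changed only with normexp correction, quantile normalization, median centring or the deposited values. The other alternatives left the values of these genes unchanged or left out an array, which cannot make separated groups overlap. The lowest adjusted p of limma was 0.126 for Irx1 and 0.173 for Irx6. Irx2, Irx3, Irx4 and Irx5 each crossed 0 when an array was left out.

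**Figure D5:**
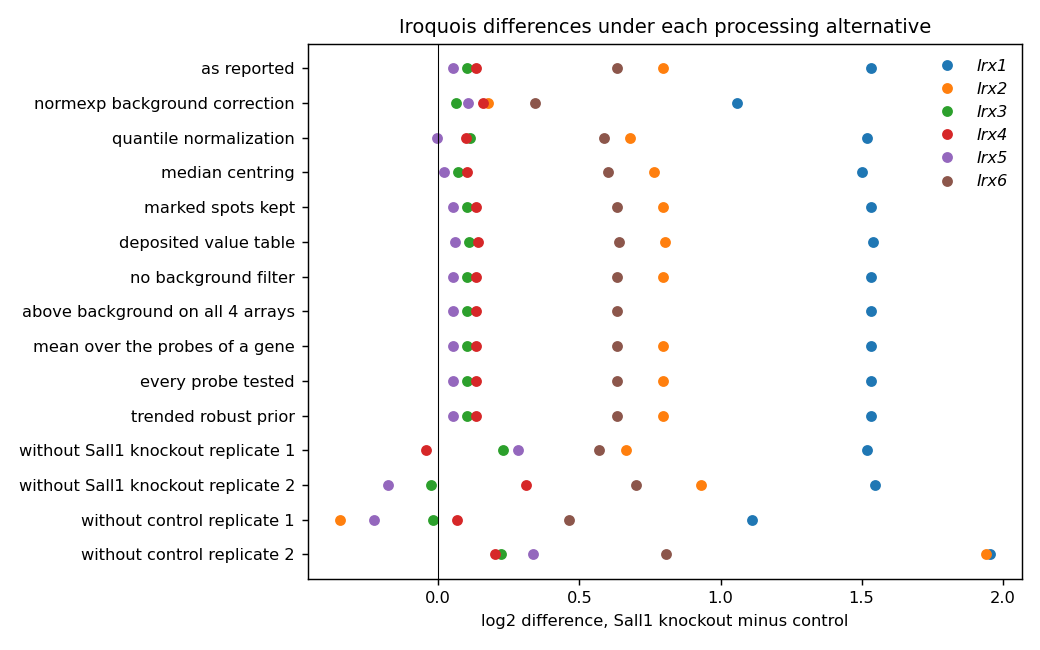
Log2 difference (Sall1 knockout minus control) of each Iroquois gene as reported and under 14 processing alternatives, 1 colour per gene. Irx1 stays between 1.06 and 1.95 and Irx6 between 0.34 and 0.81, while Irx2 runs over -0.35 to 1.94 when 1 control array is left out.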

How the data were processed

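RNA of 2 Sall1 knockout and 2 control kidney samples was read on one-colour Agilent arrays of design 028005 (genome build mm9), and spots were quantified with Agilent Feature Extraction 10.7.3.1, per the file headers. The deposited processed signal is a linear intensity, corrected for background and detrended within the array but not scaled between arrays, per the file headers. All 4 arrays share 1 slide and 1 scan. The deposited value table held the same intensity within 1% for 100% of 55249 single-spot probes.

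Of 62976 spots 59305 were not controls, and 0 were saturated. Marked outlier spots (147 to 174 per array) were left out. Signals were divided by the 75th percentile of each array and set to log2, spots of a probe were averaged, and 34254 of 55681 probes, kept if clearly over background on each array of 1 group or more, were used. Symbols came from RefSeq accessions matched to a table of GRCm38.p6 (26413 probes matched, 29268 did not). Each gene took its brightest probe, giving 15082 named genes and 9993 unnamed sequences. The comparison used limma 3.58.1 (R 4.3.3), two-sided, with Benjamini-Hochberg adjustment over all 25075, on 2 residual and 1.79 prior degrees of freedom. Lists were described by counts and medians without a test. The fit was checked on simulated data. The number of arrays limits the precision.

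Members, lists and alternatives were chosen with earlier results of these data known. Named genes were Sall1, the Irx genes, up to 4 members of each list and neighbour set by unadjusted p, and the 3 closest profiles per Irx gene. Others were named after their values were seen. Some genes counted in the lists are not reported here by name.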

Additional observations from a re-analysis of the deposited data

How the results depend on the processing

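Over 83 recomputed differences of the 6 genes, 0 passed an adjusted p under 0.05 and 7 changed sign, all of members that did not pass. Irx5 turned to -0.0044 with quantile normalization. With an array left out, the range was 1.11 to 1.95 for Irx1, -0.35 to 1.94 for Irx2, -0.026 to 0.23 for Irx3, -0.043 to 0.31 for Irx4, -0.23 to 0.33 for Irx5 and 0.46 to 0.81 for Irx6. The sign changes there were Irx2 (-0.35), Irx3 (-0.017) and Irx5 (-0.23) without control replicate 1, Irx3 (-0.026) and Irx5 (-0.18) without Sall1 knockout replicate 2, and Irx4 (-0.043) without Sall1 knockout replicate 1, with causes not tested. Where 1 array stands for a group, it is assumed to vary like the other group. Irx2 has no value where probes must be above background on all 4 arrays, and was 0.17 with normexp correction. Genes called over the whole array numbered 0 higher and 0 lower as reported and in each leave-one-out, 19 higher and 22 lower with normexp correction, 4 and 4 with median centring, 136 and 164 with the trended robust prior, and 11 and 10 at an adjusted p under 0.1. For normexp the median spot signal stood in for the mean. The median of all genes moved by less than 0.1 under each scaling. No paired analysis was possible because the labels give no replicate numbers shared between the groups. Dim spots limit Irx2, Irx5 and Irx6. Irx1, with control signals of 67.2 and 111, also shrank with normexp correction, to 1.06.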
